A study of Mus musculus with 6 samples.

Results

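Genes that mark Kupffer cells and other resident macrophages of the liver were followed in 6 mouse liver tumors. The 10 genes are Clec4f, Vsig4, Timd4, Marco, Cd5l, Folr2, C1qa, C1qb, C1qc and Adgre1, out of 34745 genes listed, and each symbol was matched to 1 identifier. They were selected on their measured values in these same tumors, with Marco and Timd4 taken as genes that were lower in one genotype and Clec4f and Cd5l as genes that held their level. The difference between genotypes is therefore given for them as a description, with no test. All 10 genes were counted in every tumor and passed the filter on low counts, which left 13892 genes tested.

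RNA-seq, which counts the reads of each gene's RNA, was done on 3 tumors of Prmt3 f/f mice (replicates 7, 66 and 71) and 3 tumors of Prmt3 LKO mice (replicates 92, 93 and 94). Prmt3 LKO mice carry floxed Prmt3, an arginine methyltransferase gene, and Alb-Cre, a Cre recombinase under the albumin promoter that acts in hepatocytes and is not active in macrophages. Prmt3 f/f mice carry the same floxed alleles without Cre, and the labels name the groups WT and Prmt3-KO. All mice were male and got the liver carcinogen DEN (25 mg/kg) at an age of 2 weeks, followed from 6 weeks by the liver toxin CCl4 as a 10% solution in oil at 0.5 ml/kg given 2 times a week. Tumors were taken at 26 weeks. Values per tumor are given below in the order of replicates 7, 66 and 71 for Prmt3 f/f and of replicates 92, 93 and 94 for Prmt3 LKO. The strain is not given in the sources used here. The labels do not say whether each tumor came from a separate mouse, so the p-values below measure only the spread between these samples. No untreated or non-tumor liver was among the samples, and each value describes a whole piece of tumor, in which fewer macrophages and less RNA per macrophage cannot be told apart.

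Kupffer cells are the macrophages that live inside the sinusoids, the capillaries of the liver. They clear bacteria, dying cells and altered proteins from the blood, and they settle before birth and renew themselves locally, although monocytes from the blood can replace them after injury. Their identity is kept by signals from the endothelial cells, stellate cells and hepatocytes around them, among them Notch ligands, TGF-beta family members and oxysterols. In mice Clec4f is restricted to Kupffer cells, Timd4 marks those settled longest, and the C1q genes and Adgre1 are also used by other macrophages.

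Total counts were between 18440244 and 27976598 reads per tumor. A limit of 3 reads stood for 0.105 to 0.171 CPM, the unit used for levels below (counts scaled to a common library size after TMM normalization), and these limits cover counting error only. Prmt3 was at 6.60, 8.49 and 10.2 CPM in the Prmt3 f/f tumors against 2.80, 2.03 and 3.82 CPM in the Prmt3 LKO tumors (log2 fold change -1.55, SE 0.31). Here and below, log2 fold changes are estimates of edgeR. The SE beside each is that of the difference between genotype means of log2 CPM, a separate estimate. The labelled tissue showed in its markers, since 9 hepatocyte genes summed to between 143000 and 206400 CPM per tumor. In the quasi-likelihood test of edgeR, 0 genes were lower (0% of those tested) and 0 were higher (0%) in Prmt3 LKO tumors when both a Benjamini-Hochberg adjusted p under 0.05 and a fold change of at most 0.5 or at least 2 were asked for, and the smallest adjusted p was 0.0879. By DESeq2 these limits gave 44 lower and 10 higher genes. Unadjusted, p was under 0.05 for 607 lower genes (4.37%) and 305 higher genes (2.2%).

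The levels of the 10 genes spanned a wide range. Per length of transcript, C1qb stood first with a mean of 80.5 FPKM (fragments scaled by gene length and library size) over the 6 tumors, followed by Cd5l at 78.2, C1qa at 74.7, C1qc at 38.5, Clec4f at 27.1, Vsig4 at 18.4, Adgre1 at 10.5, Folr2 at 9.90, Marco at 6.71 and Timd4 at 1.14 FPKM. Neighbours in this order did not always part. C1qb exceeded Cd5l in only 2 of 6 tumors, Cd5l exceeded C1qa in 4, Adgre1 exceeded Folr2 in 3 and Folr2 exceeded Marco in 4, whereas the other neighbours kept their order in 6 of 6 tumors. Timd4 was thus the lowest of the 10 genes in every tumor, and Marco, with a mean of 11.1 FPKM in Prmt3 f/f and 2.28 FPKM in Prmt3 LKO tumors, came just above Folr2 in the former and below it in the latter, where Folr2 had 10.5 and 9.34 FPKM.

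**Figure D1:**
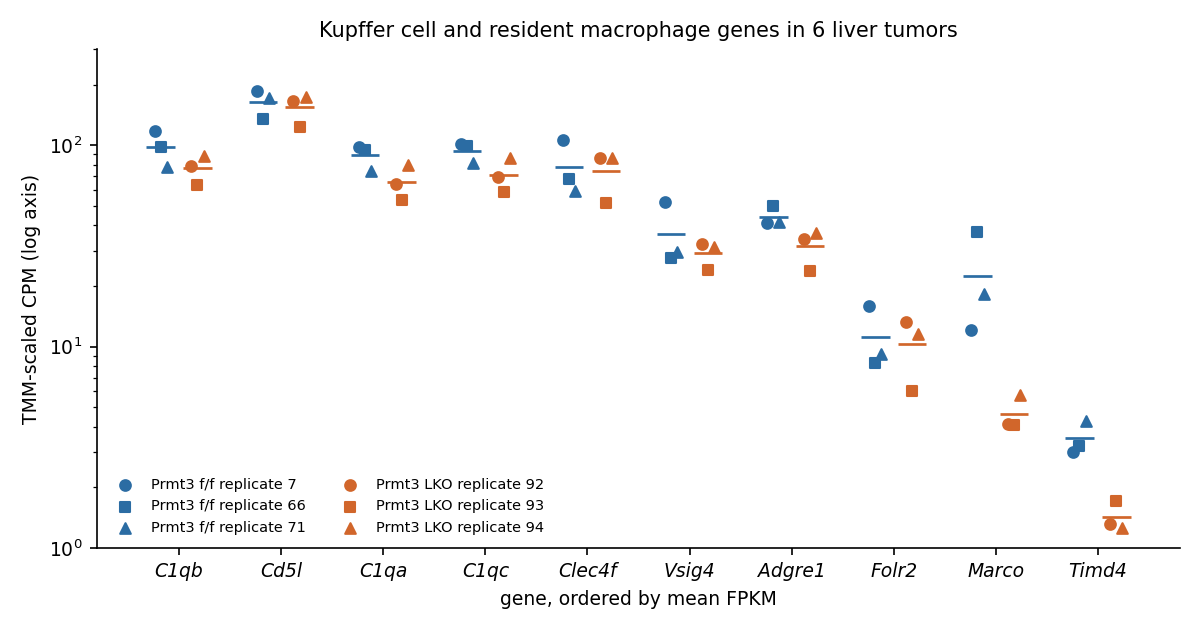
The plot gives the TMM-scaled CPM of each gene on a log axis, with 1 symbol for each of 3 Prmt3 f/f tumors (blue) and 3 Prmt3 LKO tumors (orange) and a line at the mean of each genotype, and genes ordered by mean FPKM. Only in Marco, Timd4 and Adgre1 do all orange symbols lie below all blue symbols.

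The promoters of the 4 genes that the contrast turned on are shown as the stretch in front of their start, since these genes share a cell type and differed in how they behaved. The sequences are from RefSeq on build GRCm38.p6, which held 9 promoters for 8 of the 10 genes. Each is written 5′ to 3′ on the strand of the gene, over the 250 bases before its start. Clec4f is cut to 179 bases because the deposited table starts the gene 71 bases further upstream. Capitals mark matches, on either strand, to GAGGAA (the core of a PU.1 site), AGGTCA (a nuclear receptor half-site), TGANTCA (an AP-1 site), TGCTGA (a Maf half-site) and GTGGGAA (an RBPJ site). The stretches are chr1:120505025-120505274 on the minus strand for Marco, chr11:46810549-46810798 on the plus strand for Timd4, chr6:83656188-83656366 on the minus strand for Clec4f and chr3:87357631-87357880 on the plus strand for Cd5l.
Marco: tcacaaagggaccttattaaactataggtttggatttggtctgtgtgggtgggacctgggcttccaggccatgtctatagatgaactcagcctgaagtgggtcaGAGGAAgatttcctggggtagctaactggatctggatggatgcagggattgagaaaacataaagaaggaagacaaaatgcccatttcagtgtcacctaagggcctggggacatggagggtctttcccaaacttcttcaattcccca
Timd4: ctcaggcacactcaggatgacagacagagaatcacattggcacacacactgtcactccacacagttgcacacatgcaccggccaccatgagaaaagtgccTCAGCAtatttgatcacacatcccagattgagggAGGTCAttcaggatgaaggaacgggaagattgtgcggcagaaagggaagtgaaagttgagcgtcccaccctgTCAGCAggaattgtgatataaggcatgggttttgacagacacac
Clec4f: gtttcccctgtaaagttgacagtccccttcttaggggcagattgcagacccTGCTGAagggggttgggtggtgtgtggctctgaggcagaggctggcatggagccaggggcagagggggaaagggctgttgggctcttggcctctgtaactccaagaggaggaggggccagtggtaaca
Cd5l: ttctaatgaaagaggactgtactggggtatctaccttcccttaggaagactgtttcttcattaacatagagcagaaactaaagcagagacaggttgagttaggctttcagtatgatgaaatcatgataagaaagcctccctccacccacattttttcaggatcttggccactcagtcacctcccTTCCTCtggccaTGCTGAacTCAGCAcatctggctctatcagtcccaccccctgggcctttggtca

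The Marco stretch held 1 match, GAGGAA at 146 bases before the start. The Timd4 stretch held AGGTCA at 116 bases and TGCTGA at 150 and at 44 bases before the start. The Cd5l stretch held GAGGAA at 66 bases and TGCTGA at 54 and at 46 bases, and the Clec4f stretch held TGCTGA at 199 bases before the RefSeq start, with an AGGTCA match at 22 bases in the part not printed. No motif was found in both Marco and Timd4, GAGGAA was found in both Marco and Cd5l, and TGCTGA was found in Timd4, Clec4f and Cd5l. Over all 8 genes with a promoter, GAGGAA was found in 5, against 23.3% of all 32851 promoters of that length, TGCTGA in 5 against 16.1%, AGGTCA in 3 against 14.0%, TGANTCA in 1 against 6.75% and GTGGGAA in 0 against 5.42%. A match describes letters in this window and no binding was measured.

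The surface receptors are described first. Marco (ENSMUSG00000026390, chromosome 1 of GRCm38 from 120474538 to 120505024) encodes a scavenger receptor of class A that binds bacteria and particles. Its level was 12.1, 37.2 and 18.3 CPM in the Prmt3 f/f tumors against 4.12, 4.06 and 5.73 CPM in the Prmt3 LKO tumors. Every Prmt3 LKO tumor lay below every Prmt3 f/f tumor, and the Prmt3 f/f tumors were themselves far apart, with the highest at 3.09 times the lowest. The mean was 22.5 ± 13.1 CPM (SD, n = 3) in Prmt3 f/f and 4.64 ± 0.949 CPM (SD, n = 3) in Prmt3 LKO tumors, which is 20.6% of the former, and the log2 fold change was -2.28 (SE 0.50). Without Prmt3 f/f replicate 66, the tumor with most Marco, it was -1.71, and it reached -2.59 without replicate 7. The counts behind these values were between 261 and 797 reads in Prmt3 f/f and between 72 and 114 reads in Prmt3 LKO tumors.

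Timd4 (ENSMUSG00000055546, chromosome 11 from 46810800 to 46844332) encodes TIM-4, a receptor for phosphatidylserine on the surface of dying cells. It was at 3.00, 3.22 and 4.29 CPM in the Prmt3 f/f tumors against 1.32, 1.71 and 1.26 CPM in the Prmt3 LKO tumors. Again the genotypes did not overlap, and here the tumors of a genotype lay close together. The mean went from 3.50 ± 0.690 to 1.43 ± 0.249 CPM (SD, n = 3 each), or 40.8% of the Prmt3 f/f level, with a log2 fold change of -1.29 (SE 0.20) that ranged from -1.44 to -1.12 when 1 tumor at a time was left out. Timd4 rested on few reads. There were 65, 69 and 122 reads in Prmt3 f/f and 23, 38 and 25 reads in Prmt3 LKO tumors, and the exact 95% Poisson interval of the lowest count, 23, was 14.6 to 34.5 reads, which covers counting error only.

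Clec4f (ENSMUSG00000014542, chromosome 6 from 83644542 to 83656187) encodes a C-type lectin of Kupffer cells that binds galactose-bearing sugars. Its level was 106, 67.8 and 59.4 CPM in the Prmt3 f/f tumors against 86.3, 51.6 and 86.9 CPM in the Prmt3 LKO tumors. The genotypes overlapped, with means of 77.7 ± 24.7 and 74.9 ± 20.2 CPM (SD, n = 3 each). The log2 fold change was -0.05 (SE 0.35), and its sign turned to 0.23 without Prmt3 f/f replicate 7 and to 0.16 without Prmt3 LKO replicate 93.

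Vsig4 (ENSMUSG00000044206, chromosome X from 96247203 to 96293438) encodes CRIg, a complement receptor that captures C3-coated particles. It was at 52.4, 27.5 and 29.5 CPM in the Prmt3 f/f tumors against 32.5, 24.0 and 31.4 CPM in the Prmt3 LKO tumors. One tumor, Prmt3 f/f replicate 7, stood above the other 5. The log2 fold change of -0.32 (SE 0.32) became 0.03 without it.

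Folr2 (ENSMUSG00000032725, chromosome 7 from 101839990 to 101845331) encodes folate receptor beta, which is found on resident macrophages of many tissues. Its level was 15.9, 8.30 and 9.18 CPM in the Prmt3 f/f tumors against 13.3, 6.05 and 11.5 CPM in the Prmt3 LKO tumors. The genotypes overlapped, and the log2 fold change of -0.12 (SE 0.45) turned to 0.22 without Prmt3 f/f replicate 7 and to 0.16 without Prmt3 LKO replicate 93.

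Adgre1 (ENSMUSG00000004730, chromosome 17 from 57358686 to 57483529) encodes F4/80, the classic surface marker of mouse macrophages. It was at 41.0, 49.9 and 41.6 CPM in the Prmt3 f/f tumors against 34.4, 23.8 and 36.7 CPM in the Prmt3 LKO tumors. The genotypes did not overlap, but only by a small margin, with 36.7 CPM in the highest Prmt3 LKO and 41.0 CPM in the lowest Prmt3 f/f tumor. The log2 fold change was -0.48 (SE 0.21), and it ranged from -0.60 to -0.31 when 1 tumor at a time was left out.

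The secreted proteins follow. Cd5l (ENSMUSG00000015854, chromosome 3 from 87357881 to 87371073) encodes AIM, a scavenger protein that macrophages release into the blood, where it is carried with IgM. It was at 186, 135 and 172 CPM in the Prmt3 f/f tumors against 167, 123 and 173 CPM in the Prmt3 LKO tumors. The genotypes overlapped, with means of 164 ± 26.5 and 154 ± 27.0 CPM (SD, n = 3 each), and the log2 fold change of -0.09 (SE 0.21) turned to 0.05 without Prmt3 LKO replicate 93 and was 0.00 without Prmt3 f/f replicate 7.

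C1qa, C1qb and C1qc encode the chains of C1q, the recognition molecule of the classical complement pathway, which binds antibody complexes and dying cells. The 3 genes lie side by side on the minus strand of chromosome 4 from 136880129 to 136898803, in the order C1qb (ENSMUSG00000036905), C1qc (ENSMUSG00000036896) and C1qa (ENSMUSG00000036887), with gaps of 3616 and 2851 bases and no other listed gene between them. C1qa was at 98.2, 95.1 and 74.9 CPM in the Prmt3 f/f tumors against 64.6, 53.2 and 80.1 CPM in the Prmt3 LKO tumors. The overlap came from Prmt3 LKO replicate 94, which lay above Prmt3 f/f replicate 71. C1qb was at 118, 98.3 and 78.1 CPM against 78.8, 63.3 and 88.9 CPM, and C1qc at 102, 99.0 and 81.5 CPM against 69.7, 58.7 and 86.1 CPM. Prmt3 LKO replicate 94 again lay above Prmt3 f/f replicate 71 in both, as did Prmt3 LKO replicate 92 in C1qb. The log2 fold changes were -0.44 (SE 0.21) for C1qa, -0.35 (SE 0.22) for C1qb and -0.39 (SE 0.19) for C1qc. The mix of chains hardly moved. C1qa made up 37.2% to 40.2% of the summed FPKM of the 3 genes over the 6 tumors, C1qb 39.5% to 43.4% and C1qc 18.9% to 20.9%, so the ranges within each chain were narrow although the levels differed between tumors.

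Seen together on the CPM scale, 10 of 10 genes had a log2 fold change below 0 (3 of 10 on the scale relative to other phagocyte genes described next), with a median of -0.37 beside a median of 0.00 over all genes tested. In 3 of 10 genes, Timd4, Marco and Adgre1, every Prmt3 LKO tumor lay below every Prmt3 f/f tumor, and in 0 of 10 every one lay above. Over all genes tested these patterns made up 6.6% and 5.56%. As the genes were chosen with this contrast in view, their count is not a result against that share. Marco and Timd4 stood well apart from the next gene, Adgre1, with log2 fold changes of -2.28 and -1.29 against -0.48, and the sign of Clec4f, Vsig4, Cd5l and Folr2 turned when Prmt3 f/f replicate 7 or, except for Vsig4, Prmt3 LKO replicate 93 was left out.

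Genes that mononuclear phagocytes share, monocytes included, were mostly lower in the same tumors. These are 16 genes such as Csf1r, the receptor that macrophages need to survive, Cd68, a lysosomal protein, and Mpeg1, a pore-forming protein. Their median log2 fold change was -0.49, 14 of 16 lay below 0, and 8 of 16 were lower and 0 higher at an unadjusted p under 0.05 in the quasi-likelihood test, beside 4.37% and 2.2% of all genes. This list and those below were written with earlier results of these tumors known. Their counts are therefore a description and not a result against those shares. The mean log2 CPM of these 16 genes was 5.17 ± 0.28 in Prmt3 f/f and 4.70 ± 0.22 in Prmt3 LKO tumors (SD, n = 3 each), a difference of -0.48.

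Each of the 10 genes was therefore also set against this mean within its own tumor. The part that other blood cells had in this mean was not tested, so the scale is not read as an amount of macrophages. On this scale Marco had a log2 difference of -1.64 (SE 0.49) and was the 1 gene of 10 whose genotypes did not overlap. Marco was chosen as lower in these same tumors, so this adds no support. The share of all genes without overlap was not computed on this scale. Timd4 was at -0.76 (SE 0.40), with overlapping tumors. Adgre1 was at -0.02, C1qa at 0.03, C1qc at 0.07 and C1qb at 0.13, each close to 0. Clec4f, with a log2 difference of 0.43 (SE 0.24), Cd5l with 0.38 (SE 0.25), Folr2 with 0.35 (SE 0.38) and Vsig4 with 0.21 (SE 0.28) had signs opposite to those on the CPM scale. The median of the 10 genes was 0.10. The sign of the difference thus depended on the scale for 7 of the 10 genes, the exceptions being Marco, Timd4 and Adgre1. Several of these values were smaller than their SE, such as those of Adgre1 (SE 0.18) and C1qa (SE 0.06) on this scale. Such signs show no direction.

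**Figure D2:**
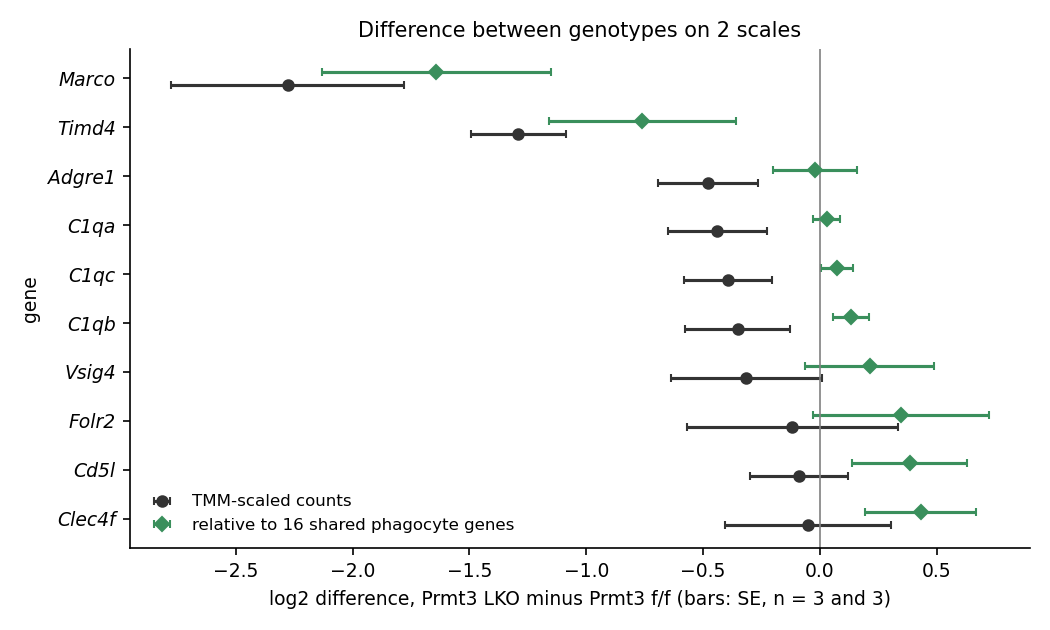
The plot gives the log2 difference between genotypes (Prmt3 LKO minus Prmt3 f/f, n = 3 and 3). Black circles are edgeR estimates from TMM-scaled counts, and green diamonds are relative to the mean of 16 genes shared by phagocytes. Bars are standard errors from log2 CPM per tumor, so those of the circles are not from the edgeR fit. Marco and Timd4 lie left of 0 on both scales, and Clec4f moves from -0.05 to 0.43.

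The same contrast could be read as a ratio inside each tumor, with Clec4f as the base. There were 11.4, 54.8 and 30.8 reads of Marco per 100 reads of Clec4f in the Prmt3 f/f tumors against 4.77, 7.87 and 6.60 in the Prmt3 LKO tumors. The genotypes did not overlap in this ratio. For Timd4 there were 2.84, 4.75 and 7.22 reads per 100 of Clec4f in Prmt3 f/f and 1.52, 3.33 and 1.45 in Prmt3 LKO tumors, where Prmt3 LKO replicate 93 lay above Prmt3 f/f replicate 7. Vsig4 had between 40.5 and 49.7 reads per 100 of Clec4f in Prmt3 f/f and between 36.2 and 46.5 in Prmt3 LKO tumors, and Cd5l had between 176 and 290 against 193 to 239, so both overlapped. The mean log2 CPM of Marco and Timd4 minus that of Clec4f and Cd5l was -4.52, -3.11 and -3.50 in Prmt3 f/f and -5.63, -4.87 and -5.45 in Prmt3 LKO tumors. The pair of Marco and Timd4 differed by -1.68 between genotypes and the pair of Clec4f and Cd5l by -0.07, as the choice of these pairs required.

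**Figure D3:**
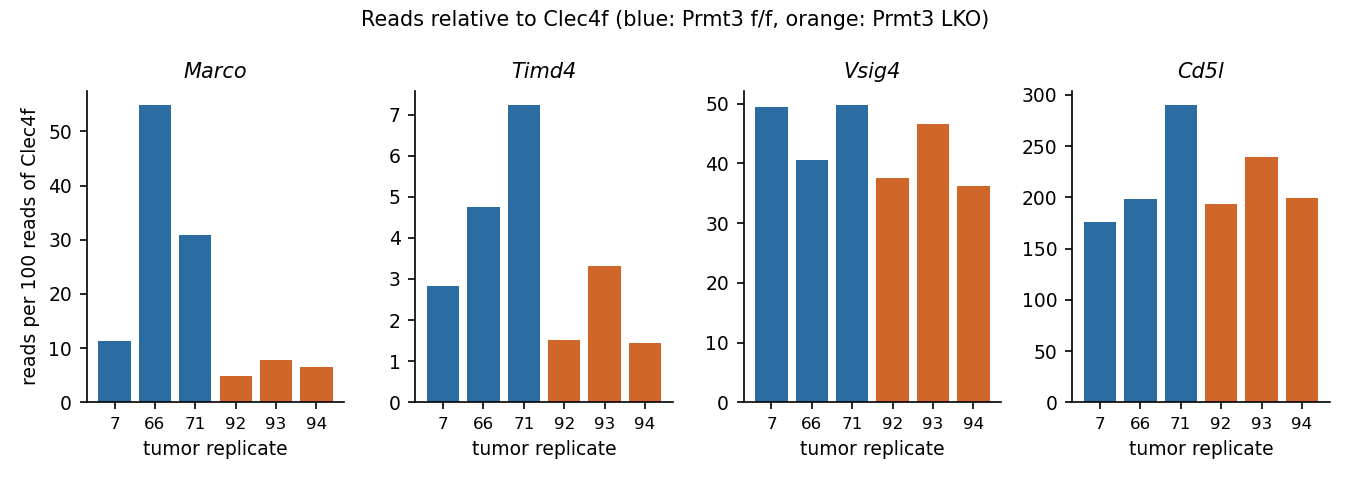
Bars show the reads of Marco, Timd4, Vsig4 and Cd5l per 100 reads of Clec4f in each tumor, on axes that start at 0 and differ between panels, with Prmt3 f/f in blue and Prmt3 LKO in orange. The 3 orange bars of Marco, at most 7.87, lie below the lowest blue bar, 11.4, and the other 3 panels overlap.

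Within a genotype the 10 genes did not vary as one group. Prmt3 f/f replicate 7 had the highest level of its genotype in 7 genes, Clec4f, Vsig4, Cd5l, Folr2, C1qa, C1qb and C1qc, and the lowest in the remaining 3, Timd4, Marco and Adgre1. Prmt3 f/f replicate 66 was highest in Marco and Adgre1, and replicate 71 in Timd4 alone. Among Prmt3 LKO tumors, replicate 93 was lowest in 9 genes and highest in Timd4, while replicate 94 was highest in 7 genes and lowest in Timd4. The order of the Prmt3 LKO tumors in Timd4 rests on 23, 38 and 25 reads. Their exact 95% Poisson intervals (14.6 to 34.5, 26.9 to 52.2 and 16.2 to 36.9 reads) overlap, so these tumors were not told apart at this depth. Nor were Prmt3 f/f replicates 7 and 66, with 65 and 69 reads and intervals of 50.17 to 82.85 and 53.69 to 87.32 reads.

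Deviations of log2 CPM from the genotype mean show the same. For the 7 genes other than Marco, Timd4 and Adgre1, all 21 pairs had a positive Pearson correlation of these deviations over the 6 tumors, from 0.47 to 0.998. These 7 are also the genes highest in Prmt3 f/f replicate 7, so part of this agreement came with the choice. Adgre1 was positive with each of the 7 too, from 0.13 with Vsig4 to 0.77 with C1qc. C1qa and C1qc moved most closely, at 0.998, and Clec4f and Folr2 reached 0.96. Timd4 had a negative correlation with each of the other 9 genes, from -0.97 to -0.11. The Prmt3 LKO tumors, and Prmt3 f/f replicates 7 and 66, were not told apart in Timd4 at this depth. Marco lay between, from -0.66 to 0.57, with 6 of 9 below 0. Marco and Timd4 had a correlation of 0.85 over the 6 tumors with the genotypes left in, and of -0.11 in the deviations. Their agreement lay in the difference between genotypes, for which both genes were chosen. All these values come from the same 6 libraries and describe them only.

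**Figure D4:**
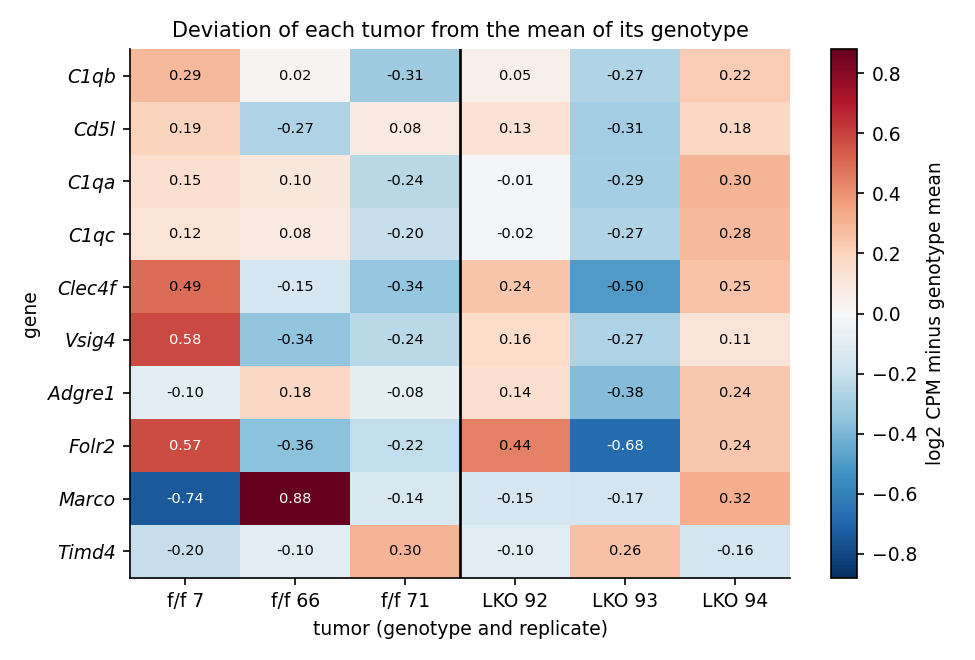
The heat map gives, for each gene and tumor, log2 CPM minus the mean of its genotype, with red above and blue below that mean and a line between Prmt3 f/f and Prmt3 LKO tumors. Marco runs from -0.74 to 0.88 over the Prmt3 f/f tumors, and Timd4 alone is above its mean in Prmt3 LKO replicate 93.

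The genes whose pattern over the 6 tumors was most like that of a given gene were found by Pearson correlation of log2 CPM among 12144 genes. Zfp362 (0.995), Parvg (0.993) and Kif3c (0.987) came first for Marco, and Rfx1 (0.997), Dennd4b (0.990) and Topors (0.985) for Timd4. For Clec4f these were Oas1g (0.992), mt-Cytb (0.987) and Nav1 (0.984), and for Cd5l D3Ertd751e (0.996), Ttpa (0.988) and Galnt1 (0.985). None of them is one of the 10 genes. Of the 12144 genes, 107 reached 0.9 for Marco, 92 for Timd4, 69 for Clec4f and 66 for Cd5l. With 6 tumors a high value does not single out a gene. The nearest of the 10 genes was Folr2, in place 11 for Clec4f with 0.95.

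Other genes known from Kupffer cells lay on both sides of 0. Among 20 of them the median log2 fold change was -0.15, 14 lay below 0, and 2 were lower and 0 higher at an unadjusted p under 0.05, beside 4.37% and 2.2% of all genes. The median was -0.04 without Prmt3 LKO replicate 93. The 2 lower genes were Slc11a1, a metal transporter of phagosomes, at 18.8 ± 2.03 against 14.0 ± 1.43 CPM (SD, n = 3 each), and Axl, a receptor for dying cells, at 64.2 ± 4.27 against 48.8 ± 7.58 CPM (SD, n = 3 each). Their Benjamini-Hochberg adjusted p in edgeR were 0.684 and 0.739. Of the 2 with the highest mean FPKM, the complement gene C6 had a log2 fold change of -0.09 (SE 0.91) and Hpgd, which degrades prostaglandins, of 0.34 (SE 0.57), and hepatocytes also express C6. Summed over the list, the level was 577 to 889 CPM in Prmt3 f/f and 527 to 753 CPM in Prmt3 LKO tumors, with overlap.

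Genes with roles like those of Marco and Timd4 were counted as well. Of 22 other scavenger and apoptotic cell receptors and their bridging proteins, 21 were tested and Havcr1 was not. Their median log2 fold change was -0.19, 17 lay below 0, and 2 were lower and 0 higher at an unadjusted p under 0.05, beside 4.37% and 2.2% of all genes. The median ranged from -0.29, without Prmt3 f/f replicate 71, to -0.09, without Prmt3 LKO replicate 94. The 2 lower genes were Olr1, an oxidized lipoprotein receptor with 16, 50 and 14 reads in Prmt3 f/f and 0, 2 and 6 reads in Prmt3 LKO tumors, and Scara5, a ferritin receptor of the same structural family as Marco, with 9.46 ± 5.13 and 3.85 ± 0.765 CPM (SD, n = 3 each). Olr1 passed the filter on low counts only through the Prmt3 f/f tumors, where it was higher, so its p adds no support. The 2 with the highest mean FPKM, Gas6, which bridges dying cells to Axl, and Itgb5, an integrin chain, had log2 fold changes of -0.19 (SE 0.24) and -0.02 (SE 0.13).

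Complement genes other than C1q had a median log2 fold change of -0.15 over 19 genes, of which 14 lay below 0. At an unadjusted p under 0.05, 5 were lower and 0 higher, beside 4.37% and 2.2% of all genes. The median was -0.01 without Prmt3 f/f replicate 71 and -0.25 without Prmt3 f/f replicate 7. Among the 5 lower genes were the integrin chains of the complement receptors, Itgam with 9.83 ± 7.22 against 1.11 ± 0.290 CPM, Itgax with 14.2 ± 1.78 against 6.99 ± 2.42 CPM and Itgb2 with 41.8 ± 14.0 against 21.7 ± 3.08 CPM (SD, n = 3 each), together with Cfp, or properdin, which stabilizes the alternative pathway convertase. The 2 with the highest mean FPKM, which hepatocytes make, had log2 fold changes of -0.03 (SE 0.22) for C3, the central complement protein, and of -0.24 (SE 0.26) for Serping1, the inhibitor of the C1 complex. The adjusted p of Itgam, Itgax and Itgb2 were 0.592, 0.606 and 0.592 in edgeR after Benjamini-Hochberg correction.

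Markers of other blood cells were mostly lower in Prmt3 LKO tumors too. Recruited monocyte genes had a median log2 fold change of -0.80 over 12 genes, of which 11 lay below 0 and 4 were lower and 0 higher at an unadjusted p under 0.05, beside 4.37% and 2.2% of all genes. This median was -0.51 without Prmt3 f/f replicate 7 and -1.15 without Prmt3 f/f replicate 71. For neutrophil genes it was -1.28 over 6 tested of 10, for T cell genes -1.07 over 10, for dendritic cell genes -0.84 over 10 and for B cell genes -0.33 over 7 tested of 10. At an unadjusted p under 0.05, 4 neutrophil, 6 T cell, 4 dendritic cell and 0 B cell genes were lower and 0 were higher, read against the same shares of 4.37% and 2.2%. Among the lower genes of these lists, Chil3, S100a8, Retnlg, Cd5, Cd2, Xcr1 and Itgae reached the filter limit in every tumor only in Prmt3 f/f. They passed through the genotype where they were higher, so their p adds no support to these counts. The B cell median was -0.53 without Prmt3 LKO replicate 93, and the other 3 kept within 1.5 times their value with any 1 tumor left out. Ly6c2, a surface antigen of classical monocytes, was at 3.80 ± 1.03 and 1.21 ± 0.217 CPM, and Ccr2, their homing receptor, at 9.53 ± 4.37 and 3.96 ± 1.20 CPM (SD, n = 3 each). Chil3, a chitinase-like protein, was at 2.39 ± 0.721 and 0.663 ± 0.366 CPM (SD, n = 3 each), and Itgam, given above, is also of this list. The 2 monocyte genes with the highest mean FPKM, Hp and Fn1, which hepatocytes also make, had log2 fold changes of 0.01 (SE 0.28) and -0.14 (SE 0.20), and the sum over the list overlapped, at 7831 to 8313 CPM in Prmt3 f/f and 5988 to 9366 CPM in Prmt3 LKO tumors. Summed T cell genes lay between 30.1 and 35.6 CPM in Prmt3 f/f and between 7.49 and 19.9 CPM in Prmt3 LKO tumors. Neutrophil genes lay between 18.0 and 33.4 against 9.43 to 12.9 CPM, and dendritic cell genes between 19.1 and 30.3 against 11.4 to 17.9 CPM. B cell genes lay between 14.9 and 16.7 against 11.2 to 13.1 CPM. The genotypes did not overlap in any of these sums. Among single genes tested, every Prmt3 LKO tumor lay below every Prmt3 f/f tumor in 6.6%. Ly6g, a defining neutrophil gene, had at most 3 reads in any tumor. Among structural cells, the median was -0.13 for sinusoidal endothelial genes and -0.25 for stellate cell genes (10 genes each) and 0.02 for hepatocyte genes (9 genes), with 0 genes of these 3 lists at an unadjusted p under 0.05. With any 1 tumor left out the endothelial median ran from -0.25 (without Prmt3 f/f replicate 7) to -0.04 (without replicate 66), and the stellate median from -0.51 (without Prmt3 LKO replicate 94) to 0.00 (without Prmt3 f/f replicate 66). No gene of these other lists passed a Benjamini-Hochberg adjusted p under 0.05 in the quasi-likelihood test of edgeR, and the part that other cells had in the levels of the 10 genes was not tested.

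**Figure D5:**
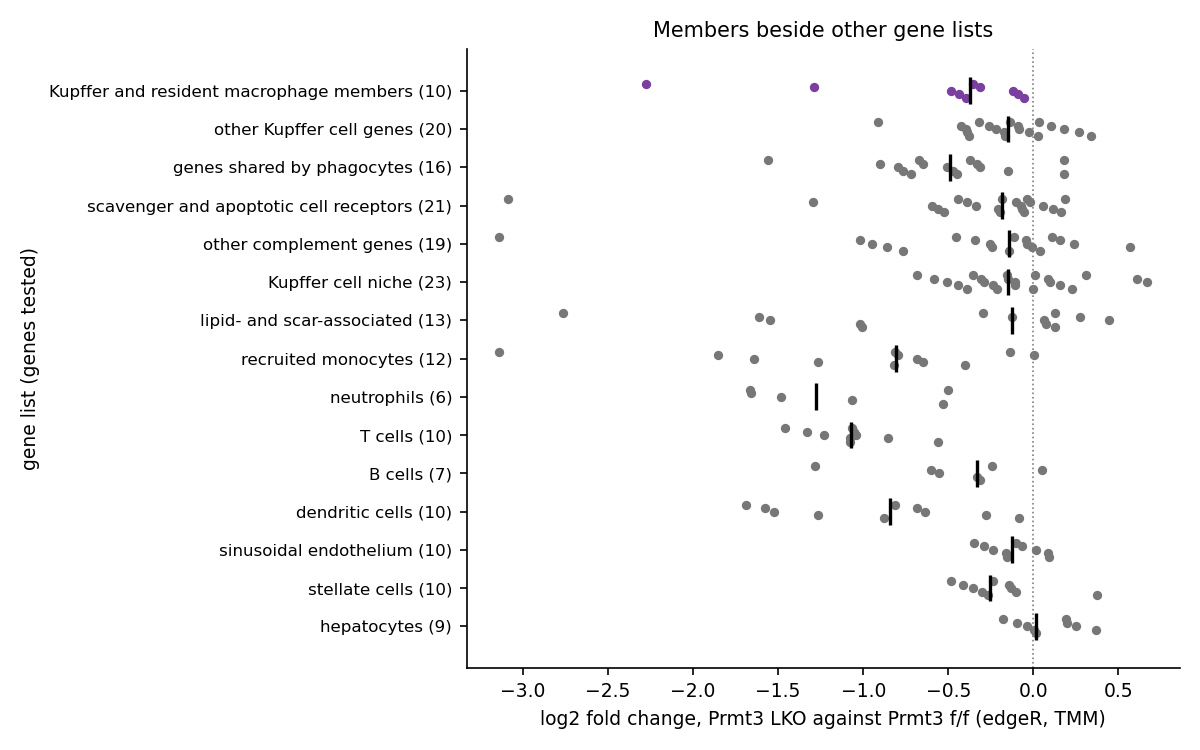
Each point is the log2 fold change of 1 gene (Prmt3 LKO against Prmt3 f/f, edgeR with TMM normalization), each row is a gene list with the number of genes tested, and black bars mark medians. The 10 Kupffer and resident macrophage genes (purple) have a median of -0.37, with Marco and Timd4 far to the left, and the T cell and neutrophil lists have medians of -1.07 and -1.28.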

How the data were processed

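RNA of 6 tumors was sequenced, 3 per genotype, and grouped by the genotype in the labels. The submitters' processing notes name bcl2fastq 2.19, HISAT2 2.0.4, StringTie 1.3.0 and build GRCm38. The authors deposited raw read counts per gene, which are not normalized, and FPKM, which the authors scaled by gene length and library size. The counting tool, annotation release and use of strand are not given in the sources used here, and no listed gene overlaps any of the 10 genes. All value columns were used, 0 were left out.

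Counts were filtered with filterByExpr (minimum count 10, minimum total 15), scaled by TMM and fitted in edgeR 4.0.16 (R 4.3.3) for its quasi-likelihood test, and p-values were adjusted after Benjamini and Hochberg over 13892 genes. The script was tested on simulated data. log2 CPM used a prior count of 2. The SE printed beside an edgeR log2 fold change was computed from the SD of log2 CPM in each genotype and is not from the edgeR fit. The 10 genes and the other lists were chosen with earlier results of these data known. Besides the 10 genes, the text names up to 4 genes of smallest unadjusted p under 0.05 and the 2 of highest mean FPKM in each list, and the 3 genes most like Marco, Timd4, Clec4f and Cd5l, among genes of at least 1 CPM with predicted genes passed over. Some other genes, such as Csf1r, Trem2, Gpnmb, Mmp12 and Ly6g, are named outside this rule. The hepatocyte gene Tf was not found under that symbol. Alternatives were DESeq2 1.42.0, limma-voom (limma 3.58.1), the exact test of edgeR, no TMM, no filter, a mean of at least 1 CPM, log2(FPKM + 1), the shared phagocyte scale and each tumor left out in turn. Total counts of 18440244 to 27976598 set the counting error, and 3 tumors per genotype limit the precision.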

Additional observations from a re-analysis of the deposited data

How the results depend on the processing

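Among the medians of lists and single genes, 310 of 322 alternatives moved the value by less than the spread between replicates and 12 moved it by more. Of these, 10 are the scale relative to genes shared by phagocytes, on which the median of the 10 genes moved from -0.37 to 0.10. Without 1 tumor that median lay between -0.51 and -0.25. Timd4 moved to -0.66 on log2(FPKM + 1), where a pseudocount of 1 compresses a gene of 1.14 FPKM. The median of hepatocyte genes, 0.02, was 0.31 without Prmt3 LKO replicate 93 and between -0.086 and 0.31 without any 1 tumor. Marco, Timd4 and Adgre1 lay below 0 in 15 of 15 settings, C1qa, C1qb and C1qc in 14, Vsig4 in 13, and Clec4f, Cd5l and Folr2 in 12.

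The count of genes called past the limits over all genes depended on the tool. It was 0 lower and 0 higher, and became 44 lower and 10 higher with DESeq2, 35 lower and 5 higher with the exact test of edgeR, and 2 lower with no filter. At an unadjusted p under 0.05 and the same fold limits, 246 genes were lower and 44 higher, and 455 and 119 with no filter. Without 1 tumor these counts ranged from 194 to 373 lower and from 53 to 103 higher. The most lower genes, 373, came without Prmt3 f/f replicate 71, and the higher count passed 1.5 times its value without Prmt3 f/f replicate 7 (103) or 71 (92) and without Prmt3 LKO replicate 92 (69) or 93 (77). The cause was not tested. No paired analysis was possible because the genotypes share no replicate number. Timd4, with 23 to 122 reads per tumor, is the gene that depth limits most.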

Other observations

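Signals that keep Kupffer cells in place were also counted. Over 23 genes of the Kupffer cell niche the median log2 fold change was -0.15, 14 lay below 0, and 2 were lower and 1 higher at an unadjusted p under 0.05 in the quasi-likelihood test of edgeR, beside 4.37% and 2.2% of all genes. The median ranged from -0.22, without Prmt3 f/f replicate 7, to -0.05, without replicate 66. The higher gene was Dll4, a Notch ligand of endothelial cells, with 9.06 ± 2.38 CPM in Prmt3 f/f and 14.4 ± 2.99 CPM in Prmt3 LKO tumors (SD, n = 3 each) and every Prmt3 LKO tumor above every Prmt3 f/f tumor. The lower genes were Notch1, a receptor for it, with 35.3 ± 2.67 against 27.6 ± 3.13 CPM, and Irf8, a transcription factor of monocytes and macrophages, with 24.8 ± 3.32 against 17.4 ± 3.24 CPM (SD, n = 3 each). Their adjusted p were 0.684, 0.742 and 0.684 in edgeR after Benjamini-Hochberg correction. Rxra, a nuclear receptor, had a log2 fold change of 0.09 (SE 0.28) and Tgfbr2, a TGF-beta receptor, of 0.00 (SE 0.26).

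Genes of lipid- and scar-associated macrophages, a state described in injured liver, had a median log2 fold change of -0.13 over 13 genes, with 7 below 0. This median turned to 0.04 without Prmt3 f/f replicate 66. At an unadjusted p under 0.05 in the quasi-likelihood test of edgeR, 2 were lower and 1 higher, beside 4.37% and 2.2% of all genes. The 2 lower genes were Itgax, given above, and Spp1. Trem2 was at -1.61, Gpnmb at -1.55 and Mmp12 at -1.01 on the log2 scale, and the genes above 0 reached at most 0.45 (Fabp5). Spp1, or osteopontin, was spread widely, with 4075, 978 and 310 CPM in the Prmt3 f/f tumors against 339, 265 and 185 CPM in the Prmt3 LKO tumors. Epithelial cells also express Spp1, and the genotypes overlapped. Fabp5, a fatty acid binding protein, was higher in every Prmt3 LKO tumor, at 189 ± 23.1 against 258 ± 38.2 CPM (SD, n = 3 each) and a Benjamini-Hochberg adjusted p of 0.742 in edgeR. Apoe, which Kupffer cells and hepatocytes both express, had a log2 fold change of 0.13 (SE 0.19), and Ctsd, a lysosomal protease, of 0.06 (SE 0.16).

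Among the 16 genes shared by phagocytes, Lyz2, or lysozyme, had the widest range, with 386, 675 and 160 CPM in the Prmt3 f/f tumors against 133, 118 and 163 CPM in the Prmt3 LKO tumors. Laptm5, a lysosomal membrane protein of blood cells, had 51.4 ± 9.26 against 31.2 ± 3.88 CPM (SD, n = 3 each), with every Prmt3 LKO tumor below every Prmt3 f/f tumor and a Benjamini-Hochberg adjusted p of 0.592 in edgeR. Fcer1g, an Fc receptor chain, had 19.5 ± 5.08 against 11.5 ± 1.29 CPM and Ctss, a lysosomal protease, 126 ± 43.0 against 67.2 ± 10.3 CPM (SD, n = 3 each). Mpeg1 had 366 ± 15.9 against 291 ± 83.0 CPM (SD, n = 3 each), with overlap.

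Single genes of the other cell types were as follows. Of neutrophil genes, S100a8 and S100a9, which encode calprotectin, had log2 fold changes of -1.67 (SE 0.34) and -1.66 (SE 0.46), Csf3r, the G-CSF receptor, -1.07 (SE 0.25) and Retnlg -1.49 (SE 0.52). Of T cell genes, the coreceptor Cd8a was at -1.46 (SE 0.35), Cd5 at -1.33 (SE 0.44), Cd2 at -1.23 (SE 0.43), the kinase Lck at -1.08 (SE 0.43), and the receptor chains Cd3g and Trac at -1.08 (SE 0.50) and -1.05 (SE 0.43) on the log2 scale. The B cell receptor chains Cd79a and Cd79b were at -0.55 (SE 0.35) and 0.05 (SE 0.20). Of dendritic cell genes, Itgae was at -1.69 (SE 0.72), Clec9a at -1.58 (SE 0.44), Xcr1 at -1.52 (SE 0.47), Siglech at -1.27 (SE 0.48), Ccr7 at -0.69 (SE 0.57) and Cd209a at -0.08 (SE 0.86). The endothelial genes Oit3 and Cdh5 were at 0.09 (SE 0.23) and -0.15 (SE 0.18), the matrix genes Dcn and Col3a1 at -0.27 (SE 0.32) and -0.48 (SE 0.51), and the hepatocyte genes Alb and Apoa1 at -0.09 (SE 0.18) and -0.18 (SE 0.19). Several of these genes rest on fewer than 30 reads in a tumor, such as Retnlg with 2 to 22 and Xcr1 with 3 to 27. S100a8, Retnlg, Cd5, Cd2, Xcr1 and Itgae passed the filter on low counts through the Prmt3 f/f tumors, where they were higher, so their p adds no support.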
